A study of Mus musculus with 7 samples.

Results

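Mitochondrial fatty acid oxidation and ketone body metabolism were followed through 8 genes in sorted pancreatic beta cells of young mice. The genes were Cpt1a, Cpt1b and Cpt2 of the carnitine shuttle, Acadm, Acadl and Acadvl of the acyl-CoA dehydrogenases, Hadh of a later step of the cycle, and Bdh1 of ketone body metabolism. They were found by symbol in the annotation of the array platform, which gave 1 probe set for each gene, 8 of the 23410 probe sets that carry a gene symbol and of 35556 in all. Of these, 7 carry the symbol of their gene alone. The Cpt1b probe set also carries Gm44502, so its signal can come from either transcript.

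The cells came from insulin-Cre; Rosa26-LSL-YFP mice on the ICR background at postnatal day 25. All 7 mice carried the same alleles, in which Cre recombinase under an insulin promoter switches on a yellow fluorescent reporter, and YFP-positive cells were isolated by flow sorting, 2000 to 6000 per mouse. In the weaned group, 3 mice had been taken from the mother early, at day 18, while the 4 mice of the suckling group were still nursed, and each mouse gave 1 Affymetrix array. The comparison sets early-weaned mice against nursed mice of equal age, and the labels do not name the food that the weaned mice ate. A reporter switched on by Cre stays on, so the sort selects cells with a history of insulin promoter activity and not cells by their present transcripts.

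In mitochondrial beta-oxidation, long-chain fatty acids are activated to acyl-CoA, passed across the inner mitochondrial membrane as carnitine esters, and shortened in repeated rounds that feed electrons to the respiratory chain and acetyl-CoA to the citric acid cycle or to ketone bodies. Suckling rodents live on fat-rich milk and weaning brings a carbohydrate-rich diet, a change that is known to lower fatty acid oxidation and ketone body production in the liver. In beta cells the entry of fatty acids into mitochondria competes with the use of long-chain acyl-CoA for signalling and lipid synthesis, and loss of the Hadh protein in humans causes excessive insulin secretion.

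Beta-cell transcripts gave strong signal in both groups. The mean of 10 measured beta-cell markers lay between 9.79 and 9.94 log2 units in weaned mice and between 9.82 and 9.94 in suckling mice. Single markers ranged widely, with Iapp at 12.4 to 12.6 over the arrays, Ins2 at 8.06 to 8.52 and Mafa at 5.57 to 6.06. Pdx1 was higher in weaned mice by 0.33 (unadjusted p = 0.0333, adjusted p = 0.651, limma), with overlapping groups. Hormone genes of other islet cells also gave strong signal, with Gcg at 11.7 to 12.3 log2 units over the 7 arrays and Sst at 11.5 to 12.2. Which cells carried these transcripts was not tested. Markers of acinar cells, which make digestive enzymes, separated the arrays. The mean of 18 such markers was 7.82 and 7.59 log2 units on suckling replicates 2 and 9, 5.99 on weaned replicate 12, 4.82 on suckling replicate 12 and 4.08 on suckling replicate 11, and lowest on weaned replicates 4 and 5, at 3.79 on each. None of the 18 separated the groups at an unadjusted p under 0.05, although all 18 had the lower mean in weaned mice. For endothelial, stromal, leukocyte and adipocyte markers, 6 of 9, 4 of 9, 6 of 10 and 5 of 6 had both group means at background. Marker genes of other cells that reached an unadjusted p under 0.05 with groups apart were Muc1 of the duct list (-0.65) and Col1a2 and Rgs5 of the stromal list (-0.29 and -0.54, the weaned mean of Rgs5 at background), all lower in weaned mice, and Ffar2 of the PP cell list (0.45), which was higher. Cidea of the adipocyte list was also lower, with both means at background. The weaned mean was above the suckling mean for 3 of 3 PP cell markers and 3 of 6 duct markers. The part of these cells in the results was not tested. Background here is the range of 1.80 to 3.15 log2 units that Xist, Eif2s3y, Uty and Kdm5d gave on the 4 arrays each that lacked their signal. Xist, Eif2s3y and Uty reached at most 2.52, 2.18 and 2.35 there, and Kdm5d gave 2.73 to 3.15. A mean above 2.52 is thus called background by Kdm5d alone. The mice differed in sex by these 4 transcripts, and weaned replicate 12 lacked the signal of all 4. The array descriptions carry a code that differs between the groups and is shared within each, so its effect and that of weaning cannot be told apart.

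The carnitine shuttle and ketone body genes whose groups of arrays did not overlap are shown first with the DNA just before their start. The genes were picked by that outcome, and no link between sequence and signal was tested. The sequences are RefSeq's for GRCm38.p6, the 250 bases before the annotated start read 5′ to 3′ along the gene. Capitals mark the hexamers AGGTCA and GGGTCA, which some nuclear receptors can bind, and the GC box GGGCGG, each searched on both strands. The windows are chr19:3323051-3323300 (plus strand) for Cpt1a, chr4:107923590-107923839 (minus strand) for Cpt2, and chr16:31422047-31422296 and chr16:31428503-31428752 (plus strand) for the annotated starts of Bdh1.
Cpt1a: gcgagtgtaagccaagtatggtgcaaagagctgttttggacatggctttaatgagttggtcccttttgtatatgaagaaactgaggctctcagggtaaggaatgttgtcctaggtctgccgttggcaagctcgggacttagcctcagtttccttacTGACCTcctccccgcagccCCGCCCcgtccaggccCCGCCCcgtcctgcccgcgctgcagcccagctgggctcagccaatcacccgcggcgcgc
Cpt2: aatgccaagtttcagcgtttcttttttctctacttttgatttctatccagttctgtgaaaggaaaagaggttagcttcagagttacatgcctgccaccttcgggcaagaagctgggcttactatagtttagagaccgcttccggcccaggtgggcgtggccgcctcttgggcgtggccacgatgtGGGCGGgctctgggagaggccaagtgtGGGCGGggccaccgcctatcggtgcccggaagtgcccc
Bdh1, first start: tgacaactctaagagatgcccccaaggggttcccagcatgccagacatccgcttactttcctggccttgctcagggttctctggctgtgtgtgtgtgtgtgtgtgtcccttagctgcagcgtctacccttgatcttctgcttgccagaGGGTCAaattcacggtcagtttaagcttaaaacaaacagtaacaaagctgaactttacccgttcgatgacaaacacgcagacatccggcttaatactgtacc
Bdh1, second start: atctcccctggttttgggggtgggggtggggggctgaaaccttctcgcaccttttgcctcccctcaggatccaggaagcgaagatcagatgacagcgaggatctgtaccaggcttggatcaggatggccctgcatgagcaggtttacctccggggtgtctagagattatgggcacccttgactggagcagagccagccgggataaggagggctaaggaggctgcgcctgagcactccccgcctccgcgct

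The Cpt1a window held AGGTCA on the minus strand, starting 94 bases before the gene, and GGGCGG at 75 and 59 bases before it. The Cpt2 window held GGGCGG at 65 and 38 bases before the start and neither hexamer. The first Bdh1 window held GGGTCA at 102 bases before the start, and the second held none of the 3 motifs marked. Among the 7 genes with a listed promoter, AGGTCA was in those of Cpt1a, Acadm and Acadvl, GGGTCA in that of Bdh1 alone, and GGGCGG in those of Cpt1a, Cpt2, Acadl and Hadh. Of all 32851 windows of the same length, 14.0% held AGGTCA, 11.6% held GGGTCA and 32.7% held GGGCGG. These shares were not matched for base composition. The median window was 52.4% G or C, and those of Cpt1a, Cpt2, Acadl and Hadh were 59.6%, 56.8%, 68% and 59.6%. The windows without GGGCGG were 64% (Acadm), 49.6% (Acadvl), and 49.6% and 60.8% (Bdh1). The direct repeat of AGGTCA with 1 free base between the copies, which overlaps with the first hexamer, was in 0.0335% of all windows, the extended site TCAAGGTCA in 0.387% and TATAAA in 12.4%, and no member window held any of these. CCAAT was in 33.8% of all windows and, among the members, in those of Cpt1a and Hadh. The matches are descriptions of these windows, and binding was not measured.

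Cpt1a gave more signal in weaned mice and Bdh1 gave less, 1.28-fold and 1.23-fold in turn, and no member passed the threshold of the test over all probe sets. Groups were compared with limma, a linear model that steadies each gene's variance with that of the others. The threshold was a Benjamini-Hochberg adjusted p of 0.05 over 23410 probe sets. Of these, 8 probe sets (0.0342%) passed, 3 of them higher in weaned mice (0.0128%), and 0 of the 8 members did. At an unadjusted p under 0.05, 1 member was higher and 1 lower in weaned mice (Cpt1a and Bdh1), where 4.15% of all probe sets were higher and 3.24% lower (972 and 759 probe sets, or 1317 and 508 with arrays centred on their medians). The groups did not overlap for 3 members, Cpt1a and Cpt2 with weaned mice above and Bdh1 with weaned mice below, where 4.01% of all probe sets had weaned mice above and 3.28% had them below (7.28% together). In mean, 7 of 8 members were higher in weaned mice, against 50.3% of all probe sets, and the median member difference was 0.13 log2 units against 0.0011. That count was 4 of 8 with the acinar marker mean as a covariate and 5 of 8 without suckling replicates 2 and 9. All members but Cpt1b were at or above the median level of the probe sets. Among probe sets at or above that level, 699 were higher in weaned mice and 370 lower at an unadjusted p under 0.05 (limma). The share of these brighter probe sets with the higher mean in weaned mice was not measured. In such bulk samples fewer cells of a type and less RNA per cell cannot be told apart.

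**Figure D1:**
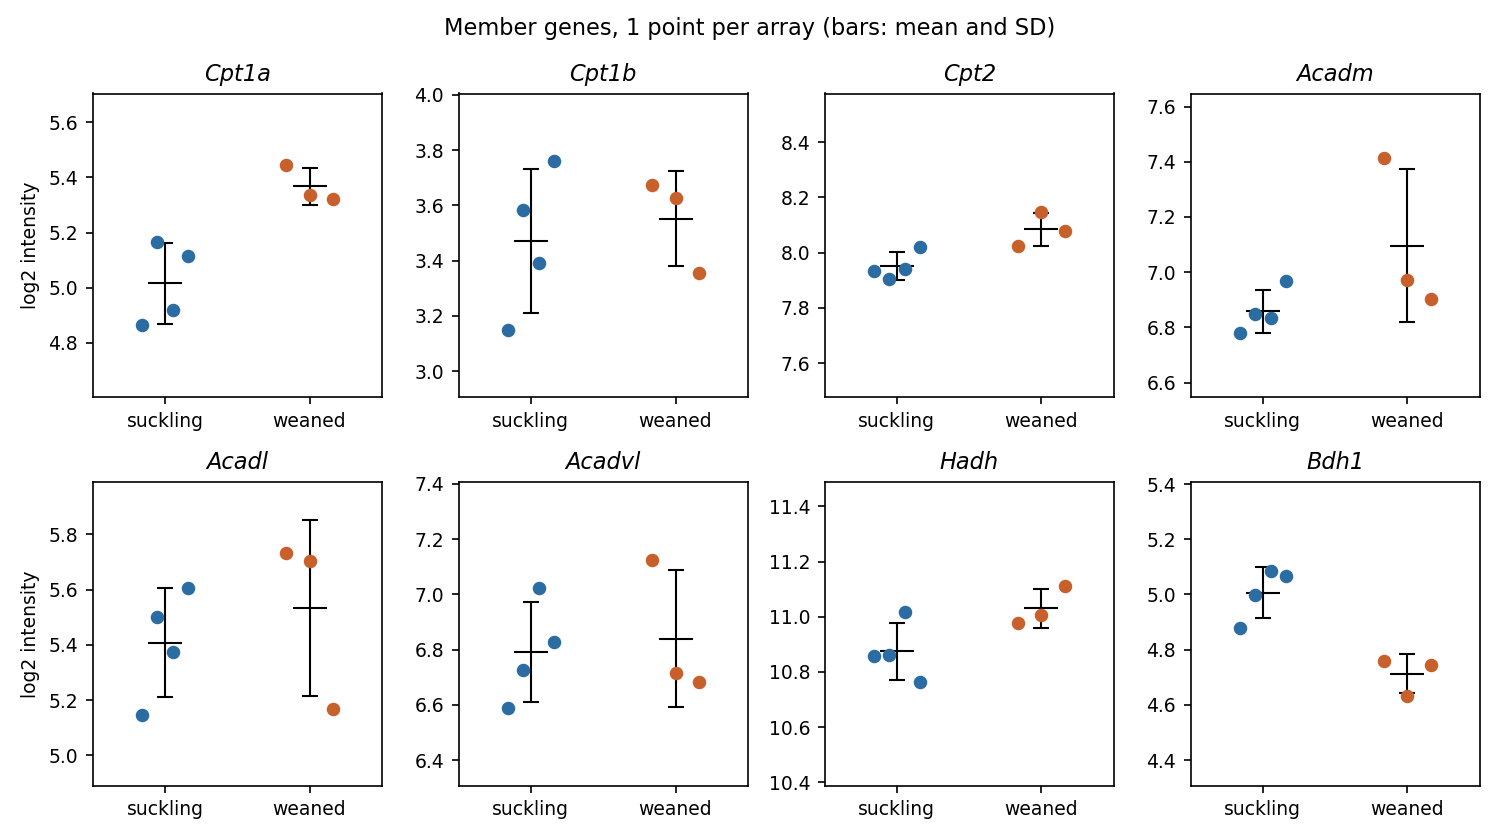
The panels plot the log2 intensity of each of the 8 genes on every array, suckling in blue (4 arrays) and weaned in orange (3 arrays), with bars for the mean and SD. Each panel spans the same range of log2 units. The weaned points lie above all suckling points for Cpt1a and below all of them for Bdh1, while for Cpt1b, Acadl and Acadvl the groups interleave.

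Cpt1a encodes the liver isoform of carnitine palmitoyltransferase 1, the enzyme of the outer mitochondrial membrane that commits long-chain acyl-CoA to oxidation and is inhibited by malonyl-CoA. Its probe set (10460157) read 5.44, 5.34 and 5.32 log2 units in weaned mice 4, 5 and 12, and 4.86, 5.17, 4.92 and 5.11 on suckling replicates 2, 9, 11 and 12. The lowest weaned array lay above the highest suckling array, replicate 9. The means were 5.37 ± 0.07 (SD, n = 3) and 5.02 ± 0.15 (SD, n = 4), a 1.28-fold higher level in weaned mice (95% interval 1.07 to 1.52). The log2 difference was 0.35 (SE 0.11, unadjusted p = 0.0125, adjusted p = 0.612, limma). It ranged from 0.30 to 0.40 with 1 array left out. It was 0.34 with the acinar marker mean as a covariate and 0.35 without suckling replicates 2 and 9. The part of acinar RNA in the difference was not tested. Adjusted p ranged from 0.444 to 0.922 over all alternatives.

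Cpt1b encodes the muscle isoform of the same enzyme. Its probe set (10431564) gave dim signal, at 3.67, 3.63 and 3.35 log2 units in weaned mice 4, 5 and 12 and at 3.15, 3.58, 3.39 and 3.76 on suckling replicates 2, 9, 11 and 12. Suckling arrays held both the lowest and the highest value, and the lowest lay at the upper edge of background. The log2 difference was 0.08 (SE 0.16, 95% interval -0.29 to 0.45), and without suckling replicate 2 it turned to -0.025. Cpt1c, the brain-enriched relative in the endoplasmic reticulum, differed by 0.11 (SE 0.12). Whether the differences of the 3 isoforms differ from each other was not tested.

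Cpt2 encodes the enzyme of the inner membrane that turns the carnitine ester back into acyl-CoA. Its probe set (10514933) read 8.02, 8.15 and 8.08 log2 units in weaned mice 4, 5 and 12 and 7.93, 7.91, 7.94 and 8.02 on suckling replicates 2, 9, 11 and 12. The weaned arrays lay above the suckling arrays, but weaned replicate 4 and suckling replicate 12 shared a value when rounded. The means were 8.08 ± 0.06 (SD, n = 3) and 7.95 ± 0.05 (SD, n = 4), and the log2 difference of 0.13 (SE 0.09, 95% interval -0.07 to 0.34) did not pass (unadjusted p = 0.174, adjusted p = 0.773, limma). It was 0.10 to 0.16 with 1 array left out.

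The acyl-CoA dehydrogenases take the first oxidative step of each round, and the members differ in the chain length they prefer. Acadm, the medium-chain enzyme (probe set 10502951), read 7.41, 6.97 and 6.90 log2 units in weaned mice 4, 5 and 12 and 6.78, 6.85, 6.83 and 6.97 on suckling replicates 2, 9, 11 and 12. Weaned replicate 4 stood above the other arrays, and the remaining weaned arrays lay at or near the top of the suckling range. The log2 difference of 0.24 (SE 0.14, unadjusted p = 0.121, adjusted p = 0.731, limma) came to 0.080 when weaned replicate 4 was left out and to 0.34 when weaned replicate 12 was.

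Acadl, the long-chain enzyme (probe set 10355246), read 5.73, 5.70 and 5.17 log2 units in weaned mice 4, 5 and 12 and 5.15, 5.50, 5.37 and 5.61 on suckling replicates 2, 9, 11 and 12. Weaned replicate 12 and suckling replicate 2 were low and the other arrays high, so that the spread within each group (SD 0.32 and 0.20) was wider than the difference of 0.13 (SE 0.17). The difference came to 0.028 when weaned replicate 4 was left out, to 0.31 when weaned replicate 12 was, and to -0.017 with the acinar covariate. Acadvl, the very-long-chain enzyme of the inner membrane (probe set 10387768), read 7.12, 6.71 and 6.68 on weaned replicates 4, 5 and 12 and 6.59, 6.73, 7.02 and 6.83 on suckling replicates 2, 9, 11 and 12. The groups covered the same range, with a difference of 0.05 (SE 0.15, 95% interval -0.30 to 0.39) that was -0.094 without weaned replicate 4.

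Hadh encodes the short-chain 3-hydroxyacyl-CoA dehydrogenase of the third step, which in beta cells also restrains glutamate dehydrogenase. Its probe set (10502205) was bright on every array, at 11.0, 11.0 and 11.1 log2 units in weaned mice 4, 5 and 12 and 10.9, 10.9, 11.0 and 10.8 on suckling replicates 2, 9, 11 and 12. Suckling replicate 11 reached the weaned values and the other suckling arrays lay below them. The means were 11.0 ± 0.07 (SD, n = 3) and 10.9 ± 0.10 (SD, n = 4), and the log2 difference of 0.16 (SE 0.10, 95% interval -0.07 to 0.39) did not pass (unadjusted p = 0.156, adjusted p = 0.759, limma). It was 0.12 to 0.20 with 1 array left out.

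Bdh1 encodes 3-hydroxybutyrate dehydrogenase of the mitochondrion, which interconverts acetoacetate and 3-hydroxybutyrate and so acts both in making and in using ketone bodies. Its probe set (10434934) read 4.76, 4.63 and 4.75 log2 units in weaned mice 4, 5 and 12 and 4.88, 5.00, 5.08 and 5.07 on suckling replicates 2, 9, 11 and 12. Every weaned array lay below every suckling array. The means were 4.71 ± 0.07 (SD, n = 3) and 5.01 ± 0.09 (SD, n = 4), a 1.23-fold lower level in weaned mice. The log2 difference was -0.29 (SE 0.10, 95% interval -0.52 to -0.07, unadjusted p = 0.016, adjusted p = 0.625, limma). It was -0.34 to -0.25 with 1 array left out, with an unadjusted p of 0.0529 without weaned replicate 5. It was -0.34 with the acinar covariate and -0.36 without suckling replicates 2 and 9. The part of acinar RNA in this difference was not tested. Adjusted p ranged from 0.476 to 0.922 over all alternatives.

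**Figure D2:**
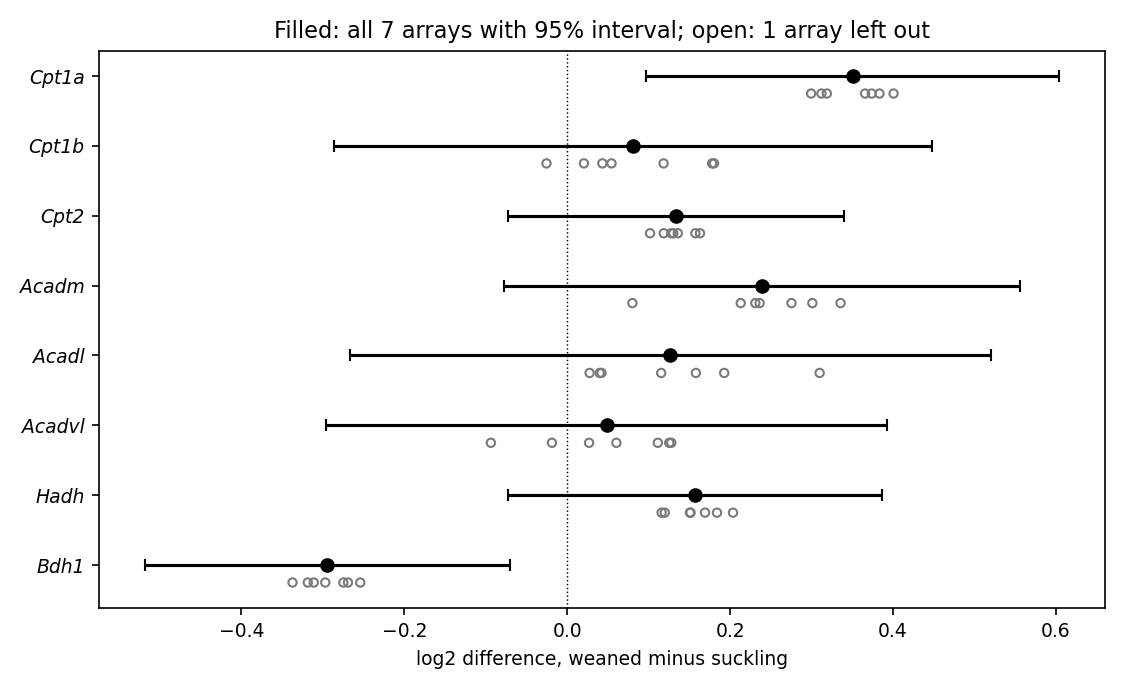
The horizontal axis is the log2 difference, weaned minus suckling. Filled points with bars give the difference over all 7 arrays with its 95% interval, and open points give the difference with 1 array left out. The intervals of Cpt1a (0.10 to 0.60) and Bdh1 (-0.52 to -0.07) leave out 0, before adjustment for the number of probe sets, and those of the other 6 genes include it.

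The 8 genes did not share 1 pattern over the arrays. Weaned replicate 4 was the highest array for 4 members (Cpt1a, Acadm, Acadl and Acadvl) and lay above the 7-array mean for 7 of 8. Suckling replicate 2 was the lowest array for 5 members and lay above the mean for none. Weaned replicate 12 lay above the mean for 3 members, as suckling replicate 11 did, and suckling replicate 12 lay above it for 6. Acinar signal was greatest on suckling replicate 2 and least on weaned replicates 4 and 5, and the part of acinar RNA in these deviations was not tested. Immediate early genes, which respond to cell dissociation, averaged 5.71, 6.43 and 5.49 log2 units in weaned mice 4, 5 and 12 and between 5.33 and 5.82 in suckling mice, highest on weaned replicate 5, which was the highest array for Cpt2 and the lowest for Bdh1. Their part in the differences was not tested either.

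**Figure D3:**
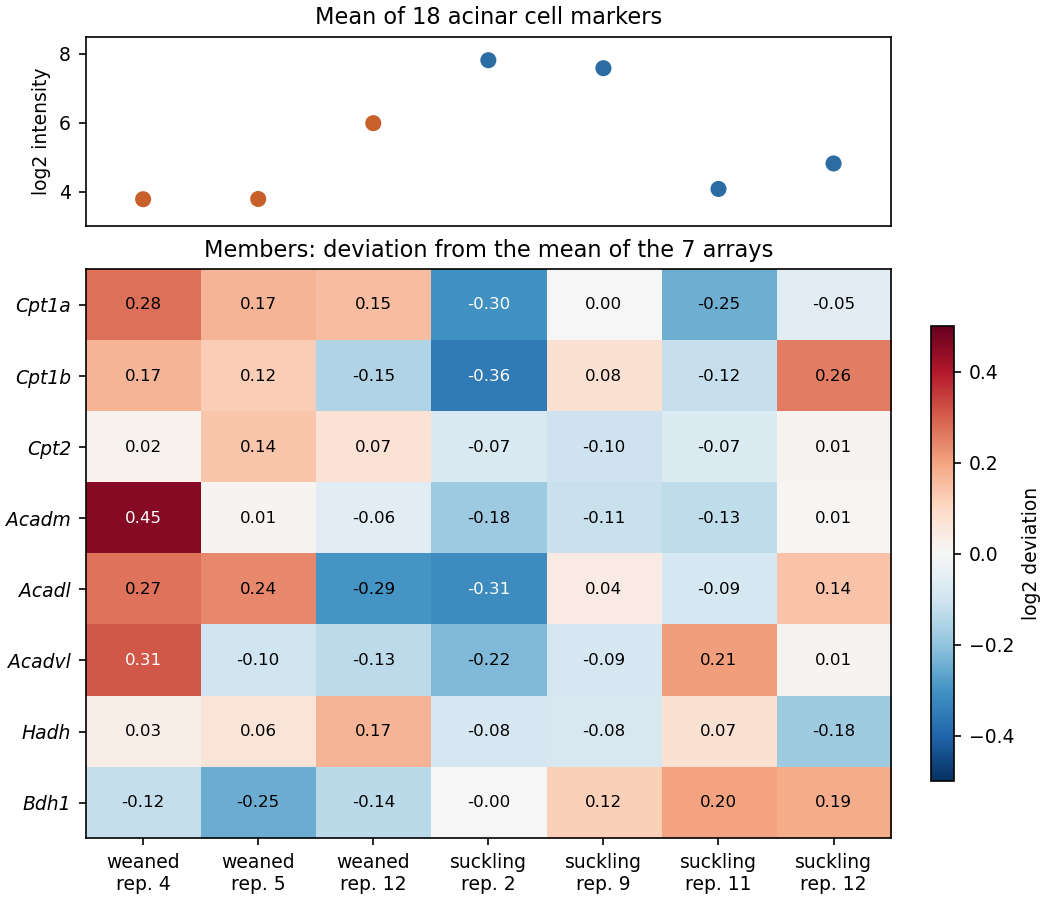
The upper panel gives the mean log2 intensity of 18 acinar cell markers on each array, weaned in orange and suckling in blue. In the lower panel each cell holds a member's log2 value minus its mean over the 7 arrays, red above and blue below the mean. Suckling replicate 2 is at or below the mean for all 8 members and Bdh1 is below it on all 3 weaned arrays.

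The array profiles of the members were set against those of other protein-coding genes by the root mean square distance between log2 values centred on each gene's mean, over 7 arrays and among genes that varied at least as much. Cpt1a was closest to Bahcc1 (distance 0.068 log2 units, where Cpt1a itself had an SD of 0.22) and Lbr (0.073). Bdh1 was closest to Prkd1 (0.046) and Plxna4 (0.046), with an SD of 0.18 of its own. For Cpt1b these were Rpp40 and Dennd6a, and for Cpt2 they were Taok2 and Fasn. Acadm was nearest to Lgi4 and Sh3d19, Acadl to Galnt14 and Exosc7, Acadvl to Med17 and Leng1, and Hadh to Mideas and Fam222a. There were 5502 to 16419 candidates per member. How close the nearest profiles of other genes are was not measured, and the names are given as a description only.

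The members belong to a wider pathway, which was covered by 8 lists of genes with 92 measured members in all, the 8 genes included. The weaned mean was above the suckling mean for 54 genes and below it for 38. The median log2 difference was 0.05, and 0 passed the adjusted threshold by limma. An unadjusted p under 0.05 was reached by 12 genes, 8 higher and 4 lower, or 13.0% where all probe sets gave 7.39%. The lists were chosen with earlier results of these data known and include Cpt1a and Bdh1, so these shares are no test of the pathway. They were also not matched for signal level or for the number of probe sets per gene. Of these 12 genes, 4 had both group means at background (Bbox1, Abcd2, Cyp4a14 and Cd36), and no size is given for them. Without suckling replicates 2 and 9 the counts were 3 higher and 5 lower, where all probe sets gave 539 and 681. The median was then 0.0093, and without suckling replicate 2 alone it was 0.011. Among probe sets at or above the median level, 5 pathway genes were higher and 2 lower, where 699 and 370 probe sets were in all. The number of pathway genes at that level was not counted, so no shares are given for these brighter probe sets.

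Genes of the later steps of mitochondrial beta-oxidation had the largest list median over all 7 arrays, but the carnitine shuttle had the larger with the acinar covariate (0.16 against 0.15) and without suckling replicates 2 and 9 (0.17 against 0.11). The weaned mean was the higher for all 11 measured genes. The median difference was 0.20, but Hadha (0.0036) and Decr1 (0.0014) were level, and 9 of 11 were higher after quantile normalization. The count was 10 of 11 with the acinar covariate and without suckling replicates 2 and 9, where the median was 0.15 and 0.11. The 2 genes with an unadjusted p under 0.05 were Acot13, a mitochondrial acyl-CoA thioesterase, and Eci1, an isomerase for unsaturated fatty acids. With limma, the unadjusted p of Eci1 stayed under 0.05 in 1 of 7 fits with 1 array left out, and was 0.173 with the acinar covariate and 0.218 without suckling replicates 2 and 9. That of Acot13 was 0.0967 without those replicates and 0.0625 without weaned replicate 12. Acot13 read 8.18, 7.91 and 8.41 log2 units in weaned mice 4, 5 and 12 and 7.54, 7.57, 8.002 and 7.36 on suckling replicates 2, 9, 11 and 12, and differed by 0.55 (SE 0.18, adjusted p = 0.621, limma). Suckling replicate 11 lay within the weaned range. Eci1 differed by 0.35 (SE 0.15) and also had suckling replicate 11 (6.91) among the weaned values (6.81 to 6.96). The trifunctional protein, which carries out the last steps for long chains, had its subunits Hadhb at 0.16 (SE 0.11) and Hadha at 0.0036 (SE 0.11).

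Among the genes of the carnitine shuttle, the weaned mean was the higher for 7 of 8. The count was 6 of 8 with the acinar covariate and also without suckling replicates 2 and 9. Bbox1, 1 of the 8 genes, had both group means at background. The median difference was 0.18, and 0.17 without suckling replicates 2 and 9. Besides Cpt1a and Cpt2, Slc25a20, the carrier that moves acylcarnitine across the inner membrane, differed by 0.23 (SE 0.18) and by 0.044 without weaned replicate 4. The acyl-CoA dehydrogenases and electron transfer proteins were divided, with 7 of 13 higher and a median of 0.05 that turned to -0.019 without suckling replicates 2 and 9 and to -0.017 with the acinar covariate. Etfa, a subunit of the flavoprotein that takes electrons from the dehydrogenases, read 8.19, 8.17 and 8.21 log2 units in weaned mice 4, 5 and 12 and 7.64, 7.92, 8.07 and 7.64 on suckling replicates 2, 9, 11 and 12. Its weaned arrays lay above all suckling arrays, and the difference was 0.37 (SE 0.13, unadjusted p = 0.0202, adjusted p = 0.633, limma). The unadjusted p was 0.0674 with the acinar covariate, 0.0785 without suckling replicates 2 and 9 and 0.0531 without weaned replicate 12 (limma). Its electron acceptor Etfdh differed by -0.09 (SE 0.16), and Acads, the short-chain dehydrogenase, by -0.0045 (SE 0.13).

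Of the genes of ketone body synthesis and use, 2 of 6 were higher in weaned mice. The median difference of -0.13 lies between Oxct1 and Bdh2 and was -0.016 without weaned replicate 5. Of the 4 lower genes, Bdh2 and Slc16a1 had both group means at background. Beside Bdh1 stood Oxct1, the enzyme that activates acetoacetate for use as fuel, at -0.13 (SE 0.13), or -0.030 without weaned replicate 5, and Acat1, the mitochondrial thiolase that joins or splits acetoacetyl-CoA, at 0.12 (SE 0.10). Bdh1 was the only member of this list with an unadjusted p under 0.05.

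Regulators and neighbouring lipid genes showed no common direction. Of the regulators, 9 of 14 were higher in weaned mice with a median of 0.07, which was 0.021 with the acinar covariate, 0.026 without suckling replicates 2 and 9 and 0.023 without suckling replicate 9 alone. Acaca, an acetyl-CoA carboxylase that makes the Cpt1 inhibitor malonyl-CoA, differed by 0.23 (SE 0.10, unadjusted p = 0.0477, adjusted p = 0.671, limma), with weaned arrays at 6.28 to 6.40 log2 units and suckling arrays at 6.01 to 6.25. Its unadjusted p stayed under 0.05 in 2 of 7 limma fits with 1 array left out, and was 0.114 after quantile normalization, 0.0892 with the intensity trend, 0.0806 with the acinar covariate and 0.0802 without suckling replicates 2 and 9. Its mitochondrial relative Acacb differed by -0.11 (SE 0.12). Lpin1, a phosphatidate phosphatase and coactivator of fatty acid oxidation genes, differed by -0.30 (SE 0.12, unadjusted p = 0.0385, adjusted p = 0.659, limma), and by -0.17 without weaned replicate 12. Its unadjusted p stayed under 0.05 in 2 of 7 limma fits with 1 array left out. Ppara, the nuclear receptor that drives these genes in liver, and its coactivator Ppargc1a had both group means at background.

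Genes that answer to PPAR receptors or store lipid had a median of -0.06, with 5 of 14 higher. With the acinar covariate it was -0.015 with 7 of 14 higher, and without suckling replicates 2 and 9 it turned to 0.0017 with 7 of 14. Plin2, a coat protein of lipid droplets, differed by 0.28 (SE 0.12) and by 0.21 without weaned replicate 4, and its unadjusted p stayed under 0.05 in 2 of 7 limma fits with 1 array left out. Pdk4, a kinase that holds back pyruvate dehydrogenase when fat is burned, read 3.06, 5.48 and 4.16 log2 units in weaned mice 4, 5 and 12 and 5.14, 5.02, 4.30 and 5.49 on suckling replicates 2, 9, 11 and 12. It varied more within the weaned group than between the groups, with a difference of -0.75 (SE 0.51) that came to -1.38 when weaned replicate 5 was left out and to -0.17 when weaned replicate 4 was. Genes of fatty acid uptake and activation had a median of -0.07 with 5 of 14 higher, which was -0.030 with 7 of 14 without suckling replicates 2 and 9 and -0.016 without weaned replicate 12. Both group means were at background for 5 of these 14 genes and for 4 of the 14 PPAR-responsive or lipid storage genes. Genes of peroxisomal beta-oxidation had a median of 0.03 with 8 of 12 higher, which was -0.06 with 5 of 12 without suckling replicates 2 and 9.

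**Figure D4:**
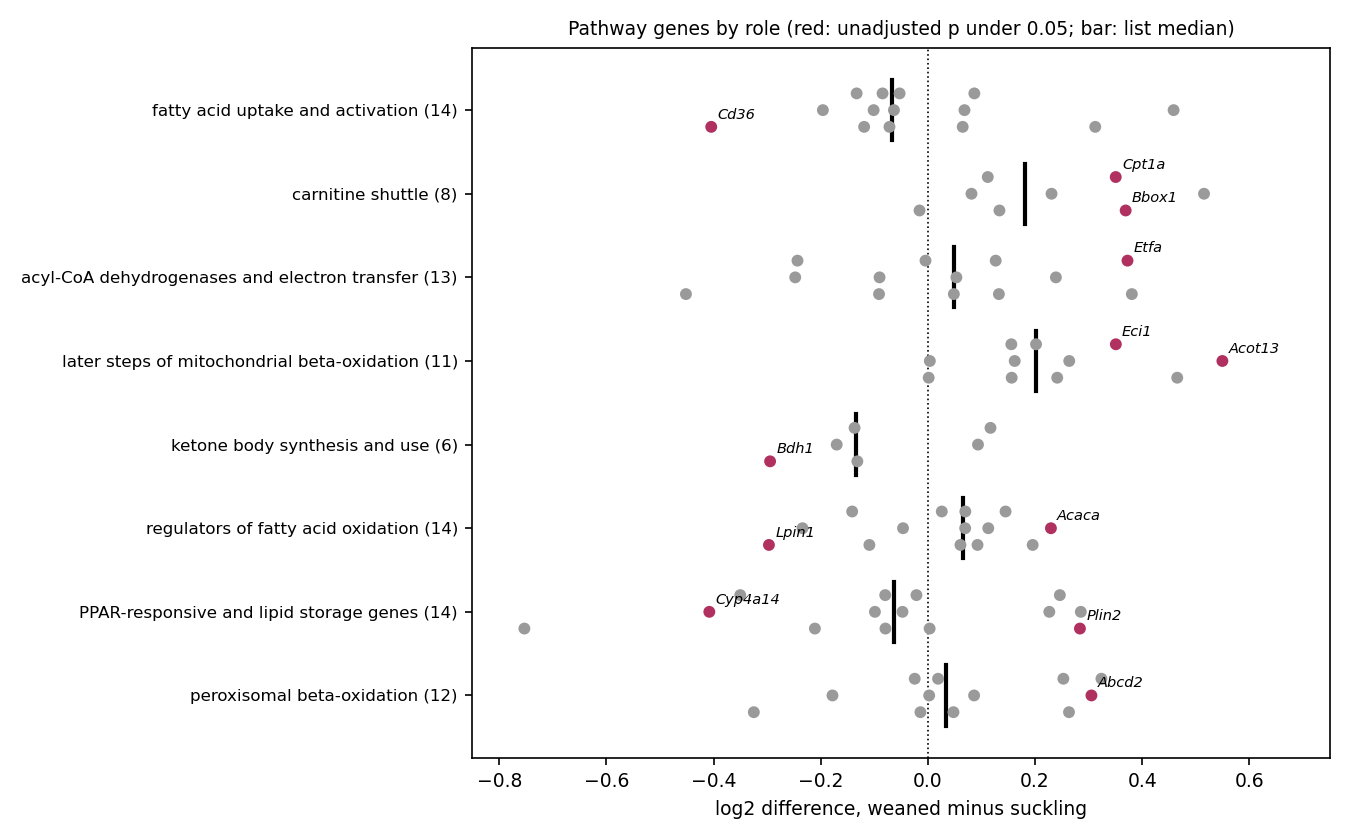
Each point is 1 gene of the 8 lists, placed by its log2 difference, weaned minus suckling, with the number of measured genes in brackets; genes with an unadjusted p under 0.05 are red and named, black bars mark list medians, and the dotted line is the median of all probe sets. The points of the later steps of mitochondrial beta-oxidation lie at or above 0 with a median of 0.20, and those of ketone body genes have a median of -0.13.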

How the data were processed

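The deposited intensity values, 1 per probe set and array, were produced by the authors. The submitters' processing notes list RMA and Partek 6.6, with no order, settings or genome build. They run from 1.45 to 12755 on a linear scale, and log2 was taken here. Array medians were 14.1 to 14.9. RMA shrinks differences of dim probe sets, and the number of arrays limits the precision. No 2 arrays were identical, and 0 sample columns were left out.

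Of the probe sets with symbols, 21789 carry 1 and 1621 carry several. A gene of a list was represented by its probe set with the highest mean, single-symbol probe sets first. The groups were compared with limma 3.58.1 in R 4.3.3 (lmFit and eBayes, no covariate, two-sided), which was tested on simulated data. Each mouse is 1 replicate.

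The members and lists were chosen with earlier results of these data known. Named were all members, up to 10 pathway genes in each direction with an unadjusted p under 0.05, 15 fixed pathway genes, and 2 genes per member with the closest profile. The alternatives were quantile normalization, median centring, an intensity trend with robust prior, array weights, a filter on dim probe sets, other sets of probe sets, an acinar covariate, and arrays left out. The restriction to genes above background was added after the data were seen. The gene-name and sequence tables are from RefSeq, GRCm38.p6.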

Additional observations from a re-analysis of the deposited data

Results flagged for a closer look

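Hadhb, a subunit of the mitochondrial trifunctional protein, read 8.23 log2 units on suckling replicate 2, below the other suckling arrays, of which the next lowest read 8.46. The gap between them is 0.865 of the range of the group, above Dixon's 95% critical value for 4 samples. Values of 30 named genes were examined in this way, and chance marks about 1 in 20 such groups. The difference of Hadhb was 0.093 without this array.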

How the results depend on the processing

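No paired analysis was possible because the groups share only 1 replicate number. The number of arrays, 3 and 4, limits the precision, and genes at background give no size. None of the 30 named genes, members included, passed an adjusted p of 0.05 under any alternative run, while 0 to 11 of all probe sets did. Of 30 named genes, 23 kept their direction throughout. With the acinar covariate the signs turned for Cpt1b (-0.032), Acadl (-0.017), Acadvl (-0.095), Hadha (-0.099) and Acads (0.075). Without suckling replicates 2 and 9 they turned for Cpt1b (-0.023), Acadvl (-0.085), Hadha (-0.066) and Acads (0.0065), and with array weights for Acadvl (-0.0019), Hadha (-0.0044) and Acads (0.0089). Hadha was -0.0051 after quantile normalization and Acads 0.030 after centring. With 1 array left out the ranges were -0.025 to 0.18 for Cpt1b, -0.094 to 0.13 for Acadvl, -0.044 to 0.096 for Hadha, -0.14 to 0.068 for Acads, -0.22 to 0.049 for Etfdh and -0.37 to 0.080 for Ppargc1a. The pathway median of 0.05 became 0.085 with centred arrays, which moved the median of all probe sets to 0.036, 0.015 with the acinar covariate and 0.0093 without suckling replicates 2 and 9, with 0.011 to 0.073 over single arrays left out. It was 0.065 over genes above background. At an unadjusted p under 0.05, members lower in weaned mice numbered 0 with the intensity trend (limma, Bdh1 at 0.0511) and 0 to 1 with 1 array left out. Pathway genes higher numbered 5 among brighter probe sets, 3 without suckling replicates 2 and 9 and 5 to 8 with 1 array left out, 5 of them without weaned replicate 12 or suckling replicate 9. Those lower numbered 2 with the intensity trend, 2 among brighter probe sets and 2 to 5 with 1 array left out, lowest without suckling replicate 12. The cause of these changes was not tested.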
